A study of Mus musculus with 6 samples.

Results

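The genes described are 10 mouse genes of antigen presentation by classical major histocompatibility complex (MHC) class I molecules. They were chosen by name and matched by Entrez gene ID, and all 10 were found among the 40808 genes of the deposited spleen count table. They are the heavy chains H2-K1 and H2-D1, the light chain B2m, the peptide transporter subunits Tap1 and Tap2, the loading chaperone Tapbp, the immunoproteasome subunits Psmb8, Psmb9 and Psmb10, and the transcriptional activator Nlrc5. The libraries read mRNA 3′ ends from the spleens of mice that had received a bone marrow transplant, and the labels call the source splenic leukaemia cells. There were 3 libraries labelled as not receiving Dox (replicates 4, 5 and 6) and 3 labelled as receiving Dox (replicates 10, 11 and 12). Dox is not spelled out in the labels, and neither its dose and duration nor the strain, age, sex, genotype, transplanted construct or leukaemia type is stated there. Nothing says that the libraries came from separate animals, so p-values measure only the spread between these libraries, which may be technical.

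MHC class I molecules display short peptides from inside the cell to CD8 T cells and are made by nearly all nucleated cells. Peptides are cut by the proteasome, in which interferon-inducible catalytic subunits can replace constitutive ones, and are pumped into the endoplasmic reticulum by a heterodimer of TAP1 and TAP2. There tapasin, the product of Tapbp, holds the transporter close to empty class I heavy chains that are paired with beta-2-microglobulin. NLRC5 is an activator that drives transcription of many of these genes. In spleen, class I transcripts are known to be abundant in lymphocytes and myeloid cells and low in maturing red cells.

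Total counts ran from 5541486 to 8725767 per library, so that 3 counts corresponded to 0.344 to 0.541 CPM (each count rescaled to one common total per library). The labelled source could be checked only in part. The summed level of 15 T cell markers was 2200 to 2330 normalized CPM without Dox and 242 to 335 with Dox, with 1 higher (Cd7) and 12 lower of 15 tested. For 10 dendritic and plasmacytoid markers it was 97.1 to 121 and 153 to 182 normalized CPM, with 7 higher and 1 lower of 9 tested. That of 15 B cell markers was 56.5 to 60.2 normalized CPM without Dox and 2496 to 2689 with Dox, and all 15 were higher. That of 15 myeloid markers was 398 to 422 and 2962 to 3017 normalized CPM, with 10 higher and 2 lower of 14 tested. For 8 NK cell markers it was 3.56 to 8.31 and 21.5 to 31.8 normalized CPM (2 higher and 0 lower of 4 tested), and for 10 stromal and endothelial markers 412 to 441 and 512 to 699 (4 higher and 2 lower). For 9 erythroid markers it was 94132 to 104210 and 133088 to 143072 normalized CPM (4 higher and 2 lower). By the same test, described below, 23.6% of all tested genes were higher and 22.1% lower. The defining markers Cd72 (B cell) and Ly6g (neutrophil) had 0 counts in all 3 libraries without Dox. Cd209a (dendritic) had 0 in every Dox library, and Klra8 (NK cell) had 0 in every library of both groups. The haemoglobin share of counts was 8.87% ± 0.23 without Dox against 15.3% ± 0.98 in the Dox group (SD, n = 3 each). Y-linked genes had 545 to 801 counts without Dox and 0 in every Dox library. Xist, the X-inactivation RNA of female cells, had 193 to 324 counts without Dox and 3347 to 5669 with Dox. The libraries without Dox thus held both. A difference in sex, or in the share of donor and host cells after the transplant, cannot be told apart from Dox in any comparison below. The class I genes H2-Q1, H2-Q2 and H2-T3 also had 0 counts in every Dox library. Since strain is not stated, a difference in strain and Dox cannot be told apart either, for H2-K1, H2-D1 and other genes of the MHC in particular. In such bulk libraries fewer cells of a type and less RNA per cell cannot be told apart either. The part of cell composition in the results that follow was not tested.

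Of the 10 members, 6 were higher and 2 lower in the Dox group by the quasi-likelihood test of edgeR, with p-values adjusted over all 14110 tested genes and a threshold of 0.05. Those higher were H2-K1, H2-D1, B2m, Tap1, Tapbp and Nlrc5; those lower were Tap2 and Psmb8; Psmb9 and Psmb10 did not pass. All 10 passed the filter on low counts. Among all tested genes 45.6% were called, 23.6% as higher and 22.1% as lower. Scaling by library size only, which shifted all genes by a median of 0.31 on the log2 scale, gave 4257 higher and 2359 lower genes in place of 3324 and 3114, and the members' counts of 6 and 2 were the same. No overlap between groups was seen in 8 members, against 59.6% of tested genes; B2m and Psmb9 were the members with overlap. The members' median log2 fold change was 1.38, beside 0.07 for all tested genes. Together the 10 genes held 0.308% ± 0.051 of all counts in the group without Dox and 0.901% ± 0.39 in the Dox group (SD, n = 3 each). The groups did not overlap in this share (exact two-sided permutation p = 0.1, and 3 against 3 libraries can give no smaller value). Most of these counts came from B2m, H2-K1 and H2-D1. They had 12395, 1174 and 1644 of the 19406 member counts in replicate 4 without Dox. In Dox replicate 10 they had 54507, 13839 and 9642 of 82482. The share therefore says little about the other members.

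**Figure D1:**
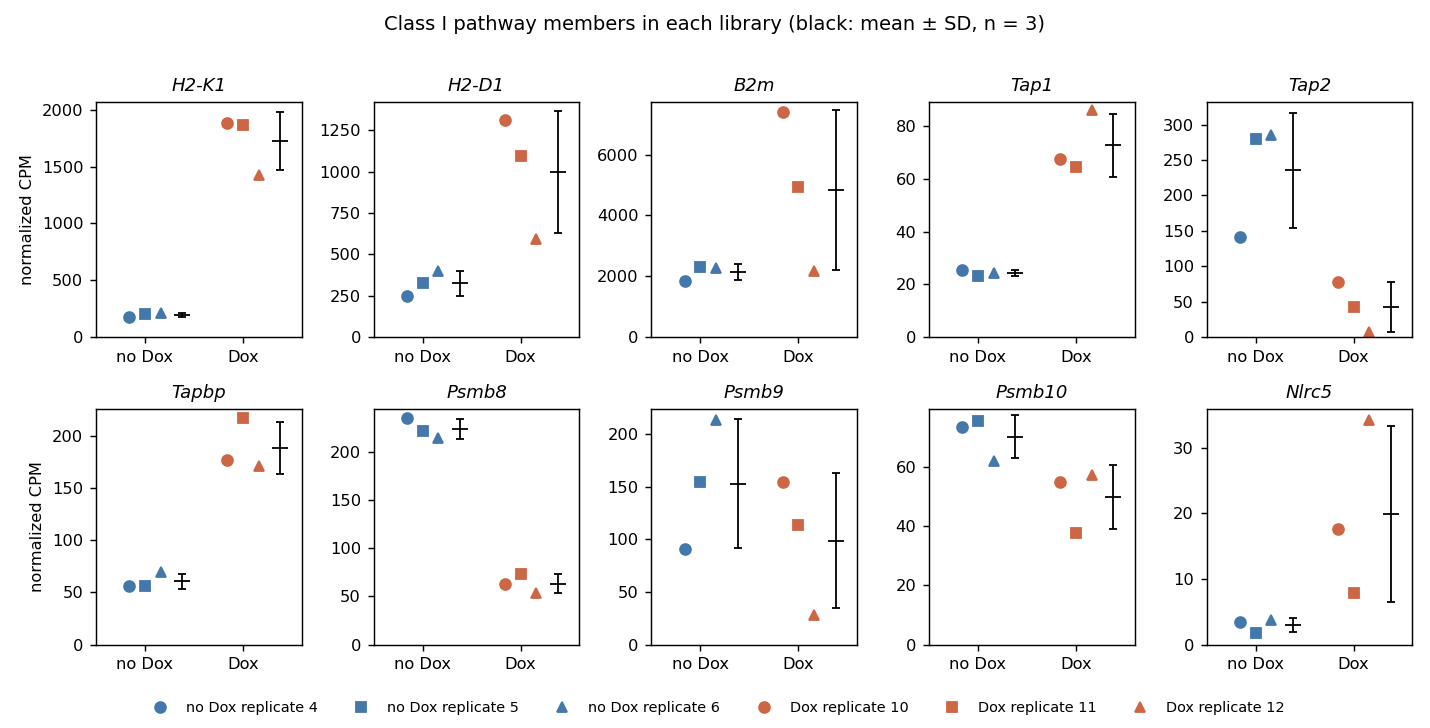
Normalized CPM (scaled with TMM composition factors; linear axes from 0) of the 10 genes in the 6 libraries, without Dox in blue and with Dox in orange, with marker shapes for replicates and black bars for the mean ± SD of 3 libraries. H2-K1, Tap1 and Tapbp form 2 tight, separate groups, whereas B2m, Tap2, Psmb9 and Nlrc5 spread widely among the Dox libraries.

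Both class I heavy chains rose. H2-K1 (Entrez gene 14972; chr17:33996012-34000619 on the minus strand, GRCm38), which encodes the K heavy chain, had 175, 199 and 212 normalized CPM in replicates 4, 5 and 6 without Dox and 1883, 1863 and 1430 in replicates 10, 11 and 12 with Dox. Every Dox library lay far above every library without Dox. This was an 8.84-fold rise, or 3.14 ± 0.17 (SE) in log2 fold change (adjusted p = 1.73e-06, edgeR). H2-D1 (Entrez gene 14964; chr17:35263094-35267497, plus strand), which encodes the D heavy chain, had 245, 324 and 401 normalized CPM without Dox and 1312, 1091 and 592 with Dox. The groups did not overlap, although Dox replicate 12 was less than 1.5 times the highest library without Dox. H2-D1 rose 3.09-fold, or 1.63 ± 0.29 (SE) in log2 fold change (adjusted p = 0.0013, edgeR).

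The balance between the 2 heavy chains was read within each library, which removes any effect of scaling. The ratio of H2-K1 to H2-D1 counts was 0.714, 0.614 and 0.528 in the group without Dox, against 1.44, 1.71 and 2.41 with Dox. H2-D1 had more counts than H2-K1 in the 3 libraries without Dox, and H2-K1 had more in the 3 with Dox. The ratio was 2.95-fold higher with Dox, with no overlap (exact two-sided permutation p = 0.1, adjusted p = 0.16 over 8 ratios). The genes are close relatives, so the sharing of sequence at their 3′ ends was measured in GENCODE M21 transcripts. Of 351 stretches of 50 bases in the last 400 bases of the longest coding transcript, 2 of H2-K1 occurred in another gene, and that gene was H2-D1. For H2-D1 43 of 351 occurred elsewhere, and the genes with the most matches, such as Adsl, Kcnk4 and Sirt1, are not class I genes; for the other 8 members the number was 0. How reads with several matches were assigned is not stated, and the related genes H2-Q7 and H2-Q9 had the same count in all Dox libraries (2415, 2858 and 1323), so the 2 heavy-chain values are less certain than the others.

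The promoter windows of both heavy chains are shown because the genes are close in sequence and both rose. They run from 250 bases before to 50 after the RefSeq start (GRCm38.p6) and are written 5′ to 3′ on the gene's strand: chr17:34000298-34000597 (minus strand) for H2-K1 and chr17:35262844-35263143 (plus strand) for H2-D1. Capitals mark matches, on either strand, to letters of 5 motifs: NF-kB (GGG, any 2 bases, TTCCC), CRE core (TGACG), Y box (CCAAT), ISRE-like (GAAA, any 2 bases, GAAA) and GAS (TTC, any 3 bases, GAA). No match in these windows overlaps another.
H2-K1: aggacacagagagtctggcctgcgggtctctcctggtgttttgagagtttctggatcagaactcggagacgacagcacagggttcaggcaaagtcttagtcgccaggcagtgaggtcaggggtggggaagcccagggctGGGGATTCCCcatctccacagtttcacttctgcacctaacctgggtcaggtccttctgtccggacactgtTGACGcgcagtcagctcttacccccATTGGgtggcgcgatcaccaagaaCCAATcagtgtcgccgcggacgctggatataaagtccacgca
H2-D1: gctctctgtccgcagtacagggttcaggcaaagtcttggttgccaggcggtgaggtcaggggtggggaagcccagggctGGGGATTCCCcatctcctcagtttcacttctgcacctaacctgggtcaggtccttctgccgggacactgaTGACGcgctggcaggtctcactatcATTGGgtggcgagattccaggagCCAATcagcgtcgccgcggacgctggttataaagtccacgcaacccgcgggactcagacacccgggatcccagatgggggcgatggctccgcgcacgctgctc
A local alignment of the RefSeq windows of the 2 genes, which for H2-K1 used the window that starts at 34000284, had 217 identical bases of 241 aligned. Both hold the same NF-kB match, 1 CRE core and 2 Y box matches. The NF-kB letters occur in 1.75% of all 32851 RefSeq windows of this length, the CRE core in 20.8% and the Y box in 37.4%. A match describes the letters and does not show binding.

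B2m (Entrez gene 12010; chr2:122147687-122153082, plus strand) encodes beta-2-microglobulin, the invariant light chain of every class I molecule. With 1 fragment expected per transcript, it was the most abundant member in all 6 libraries, at 1850, 2305 and 2271 normalized CPM without Dox and 7418, 4923 and 2156 with Dox. Replicates 10 and 11 were more than 2 times the highest library without Dox, and replicate 12 lay among the libraries without Dox. B2m rose by 1.17 ± 0.35 (SE) on the log2 scale (adjusted p = 0.020, edgeR). That call was lost when any 1 library other than Dox replicate 12 was left out (adjusted p from 0.052 to 0.098). Without Dox replicate 12 the log2 fold change was 1.51 (adjusted p = 7.07e-05). Its neighbour Patl2, which overlaps it, had 21 counts over the 6 libraries.

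Heavy and light chain counts were then compared within libraries. The ratio of H2-K1 to B2m counts was 0.0948, 0.0863 and 0.0932 in the group without Dox, against 0.254, 0.378 and 0.663 with Dox. All Dox libraries lay above those without Dox, and the ratio was 4.37-fold higher (exact two-sided permutation p = 0.1, adjusted p = 0.16 over 8 ratios). The ratio of H2-D1 to B2m counts was 0.133, 0.141 and 0.177 in the group without Dox, against 0.177, 0.222 and 0.275 with Dox, and its lowest Dox library all but met the highest library without Dox (0.1769 and 0.1765). This ratio was 1.48-fold higher with Dox (exact two-sided permutation p = 0.1, adjusted p = 0.16 over 8 ratios). The B2m promoter window, chr2:122147437-122147736 on the plus strand, is given for its ISRE-like match. It alone among the 9 windows of the 8 members with one held these letters, which 3.44% of all windows hold. The letters are exact, so windows without a match, such as those of the heavy chains, may hold variants of the element.
B2m: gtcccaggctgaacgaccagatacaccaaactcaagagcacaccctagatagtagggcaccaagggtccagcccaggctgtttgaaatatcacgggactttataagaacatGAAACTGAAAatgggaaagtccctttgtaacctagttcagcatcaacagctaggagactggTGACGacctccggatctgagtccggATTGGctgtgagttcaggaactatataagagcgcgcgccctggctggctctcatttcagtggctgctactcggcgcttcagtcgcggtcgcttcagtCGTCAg

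The 2 subunits of the peptide transporter moved in opposite directions. Tap1 (Entrez gene 21354; chr17:34187556-34197225, plus strand) had 25.4, 23.3 and 24.2 normalized CPM without Dox and 67.4, 64.4 and 86.2 with Dox. These are 115 to 170 and 495 to 654 counts, and each group was tight. Tap1 rose 2.99-fold, or 1.58 ± 0.21 (SE) in log2 fold change (adjusted p = 0.00020, edgeR). Tap2 (Entrez gene 21355; chr17:34204479-34216321, plus strand) had 141, 279 and 286 normalized CPM without Dox and 77.7, 42.4 and 7.51 with Dox. All Dox libraries were below the lowest library without Dox, and they differed among themselves by 10.3-fold, from 571 counts in replicate 10 to 57 in replicate 12. Its log2 fold change was -2.47 ± 0.63 (SE; adjusted p = 0.0096, edgeR), and it was -1.99 without Dox replicate 12 and -3.25 without Dox replicate 10.

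Tap1 counts were 0.180, 0.0838 and 0.0851 of Tap2 counts without Dox, and 0.867, 1.52 and 11.4 times Tap2 counts with Dox. The ratio differed 22.7-fold between group means on the log scale, the largest difference among the 8 ratios (exact two-sided permutation p = 0.1, adjusted p = 0.16). On the log2 scale this was 4.503, and it was 3.40 without Dox replicate 12 and 5.26 without Dox replicate 10. The efficiency of 3′ capture can differ between genes, so the change of a ratio between groups is better determined than its absolute value. The ratio of Tap1 to B2m overlapped between groups (exact two-sided permutation p = 0.7), and its difference of 0.56 on the log2 scale became -0.07 without Dox replicate 12.

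**Figure D2:**
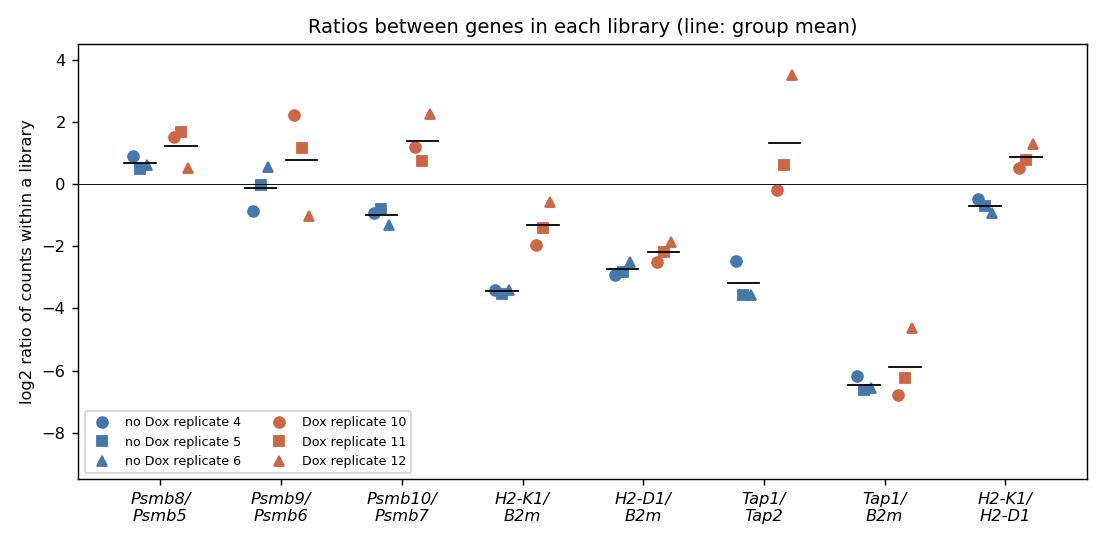
Log2 ratio of counts of gene pairs within each library (counts plus 0.5), without Dox in blue and with Dox in orange; marker shapes are replicates and short lines are group means. The groups are fully apart for Psmb10/Psmb7, H2-K1/B2m, Tap1/Tap2 and H2-K1/H2-D1, all but meet for H2-D1/B2m, and overlap for Psmb8/Psmb5, Psmb9/Psmb6 and Tap1/B2m.

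Tapbp (Entrez gene 21356; chr17:33919478-33929290, plus strand) encodes tapasin, which bridges the transporter and the heavy chain. It had 56.4, 56.5 and 69.3 normalized CPM without Dox and 177, 218 and 172 with Dox. The 2 groups were compact and well apart. Tapbp rose 3.11-fold, or 1.64 ± 0.18 (SE) in log2 fold change (adjusted p = 7.00e-05, edgeR), close in size to those of Tap1 and H2-D1.

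Among the immunoproteasome subunits 1 fell and 2 did not pass the test, while the constitutive subunits they replace all fell. Psmb8 (Entrez gene 16913; chr17:34198195-34201454, plus strand), the chymotrypsin-like subunit LMP7, had 235, 221 and 214 normalized CPM without Dox and 62.7, 73.1 and 53.1 with Dox. The groups were tight and far apart, and the log2 fold change was -1.83 ± 0.18 (SE), a 3.55-fold fall (adjusted p = 3.09e-05, edgeR). Psmb9 (Entrez gene 16912; chr17:34182030-34187330, minus strand), the subunit LMP2, had 90.9, 155 and 214 normalized CPM without Dox and 154, 113 and 28.2 with Dox. Its libraries overlapped and varied in both groups (log2 fold change -0.63 ± 0.51 (SE), adjusted p = 0.338, edgeR). Psmb10 (Entrez gene 19171; chr8:105935728-105938392, minus strand), the trypsin-like subunit MECL-1, had 73.4, 75.6 and 62.0 normalized CPM without Dox and 54.8, 37.7 and 57.2 with Dox. The groups did not overlap but lay close together, with a log2 fold change of -0.50 ± 0.21 (SE; adjusted p = 0.084, edgeR). It passed without Dox replicate 12 (log2 fold change -0.62, adjusted p = 0.033).

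Psmb5, Psmb6 and Psmb7 encode the constitutive catalytic subunits that Psmb8, Psmb9 and Psmb10 displace, in that order. Psmb7 went from 142 ± 11 to 19.6 ± 6.6 normalized CPM (log2 fold change -2.86 ± 0.27 (SE)), Psmb5 from 142 ± 16 to 27.3 ± 8.5 (-2.38 ± 0.24) and Psmb6 from 157 ± 9.6 to 47.2 ± 12.6 (-1.73 ± 0.22; SD of CPM, n = 3 each). Adjusted p-values of these 3 falls were 0.00017 or less (edgeR). The balance between each pair was then read within libraries. Psmb10 counts were 0.525, 0.571 and 0.405 of Psmb7 counts without Dox and 2.26, 1.68 and 4.75 times with Dox, so the libraries without Dox held more Psmb7 and those with Dox more Psmb10. This ratio was 5.29-fold higher with Dox (exact two-sided permutation p = 0.1, adjusted p = 0.16 over 8 ratios). Psmb8 was 1.86, 1.39 and 1.52 times Psmb5 without Dox and 2.88, 3.16 and 1.43 times with Dox, and the groups overlapped through Dox replicate 12 (exact two-sided permutation p = 0.3). Psmb9 was 0.550, 0.973 and 1.46 times Psmb6 without Dox and 4.62, 2.25 and 0.488 times with Dox, again with replicate 12 the lowest Dox library (exact two-sided permutation p = 0.5). The log2 difference of 0.90 became 0.19 without Dox replicate 10 and 1.81 without Dox replicate 12.

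**Figure D3:**
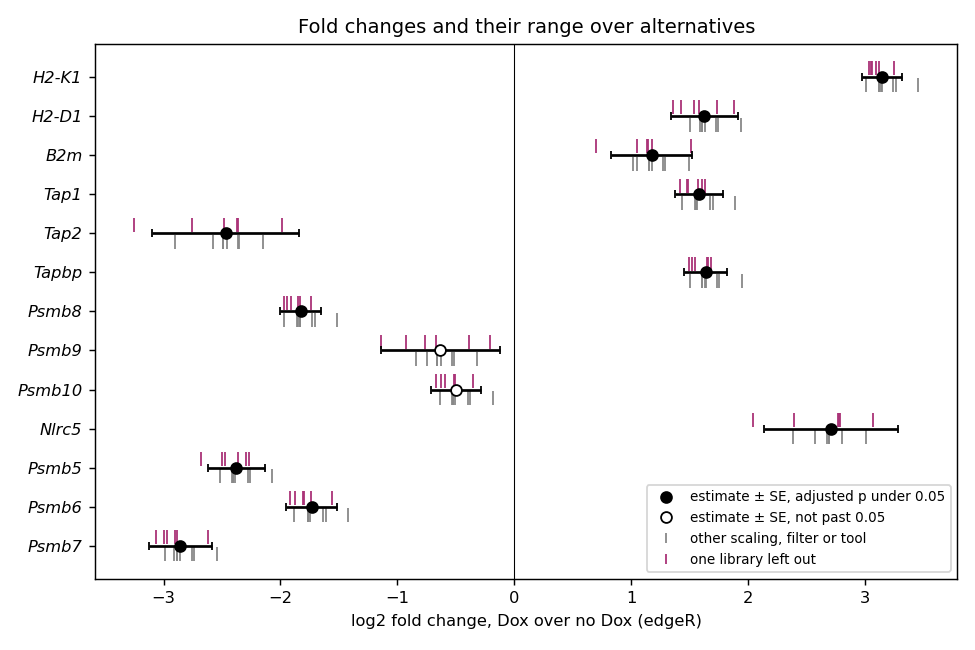
Log2 fold change of the 10 members and of the constitutive subunits Psmb5, Psmb6 and Psmb7, Dox over no Dox (points, with SE bars; filled where the adjusted p-value is under 0.05), with short marks for other scalings, filters and tools (grey) and for fits without 1 library (purple). All marks of a gene lie on 1 side of 0; the Tap2, Psmb9, Nlrc5 and B2m marks spread most when a library is left out.

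Nlrc5 (Entrez gene 434341; chr8:94434335-94527272, plus strand), the class I transactivator, had the lowest mean of the members in both groups. It had 23, 9 and 22 counts without Dox and 129, 76 and 260 with Dox, or 3.43, 1.82 and 3.73 and 17.6, 7.82 and 34.3 normalized CPM. The groups did not overlap, and the Dox libraries differed by 4.38-fold. Nlrc5 rose 6.54-fold, or 2.71 ± 0.58 (SE) in log2 fold change (adjusted p = 0.0037, edgeR). Without Dox replicate 12 it was 2.05 (adjusted p = 0.013). In limma-voom it was 2.39 and did not pass (adjusted p = 0.064). The 5 genes nearest to Nlrc5 across the 6 libraries were Nsun7, Pdzd2, Gm33534, Plcb4 and Ehbp1. Their mean absolute difference from Nlrc5 was 0.17 to 0.24 log2 CPM after centring each gene. With only 2 groups of 3, this likeness reflects mainly the difference between groups and the order of the Dox libraries.

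The Dox libraries did not order the members in 1 way. Replicate 12 was the lowest of the 3 for 7 members (H2-K1, H2-D1, B2m, Tap2, Tapbp, Psmb8 and Psmb9) and the highest for the other 3 (Tap1, Psmb10 and Nlrc5). Over all tested genes replicate 12 was the lowest in 34.3% and the highest in 38.1%. The coefficient of variation among Dox libraries was 82.5% for Tap2, 67.3% for Nlrc5, 65.2% for Psmb9 and 54.5% for B2m, beside 13.4% to 36.9% for the other 6 members. The median of the 10 members was 29.1% with Dox and 12.03% without. Over all tested genes the median was 33.2% and 18.8%, and over those at or above the median abundance it was 23.4% and 11.996%. Without Dox the members ran from 4.25% for Tap1 to 40.1% for Psmb9. Without Dox replicate 12, 6 members were called higher and 3 lower, beside 3396 higher and 3629 lower of all 14800 genes tested in that fit.

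Tap1, Tap2, Psmb8 and Psmb9 lie side by side in the MHC class II region of chromosome 17, and they did not all change in 1 direction. Psmb9 and Tap1 point away from each other across a gap of 225 bases, Psmb8 begins 969 bases after Tap1, and Tap2 begins 3024 bases after Psmb8. In this order Psmb9 did not pass the test, Tap1 rose, and Psmb8 and Tap2 fell. The next tested genes outward were the class II genes H2-DMb1 on the Psmb9 side, with a log2 fold change of 2.35 ± 0.35 (SE, adjusted p = 0.00044, edgeR), and H2-Ob on the Tap2 side, at 5.57 ± 0.33 (SE, adjusted p = 2.40e-06). For the other members, the adjoining genes tested were Rgl2 beside Tapbp (2.18 ± 0.28, adjusted p = 0.00018), Cpne2 beside Nlrc5 (1.14 ± 0.30, adjusted p = 0.012), Ddx39b beside H2-D1 (-0.99 ± 0.16, adjusted p = 0.00078), and AA388235 (-2.49 ± 0.94, adjusted p = 0.053) and Ring1 (-0.69 ± 0.83, adjusted p = 0.526) beside H2-K1. H2-Q1, on the other side of H2-D1, had 46, 38 and 51 counts without Dox and 0 in each Dox library. The 6 remaining neighbours had 5 to 30 counts over all libraries and were not tested.

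**Figure D4:**
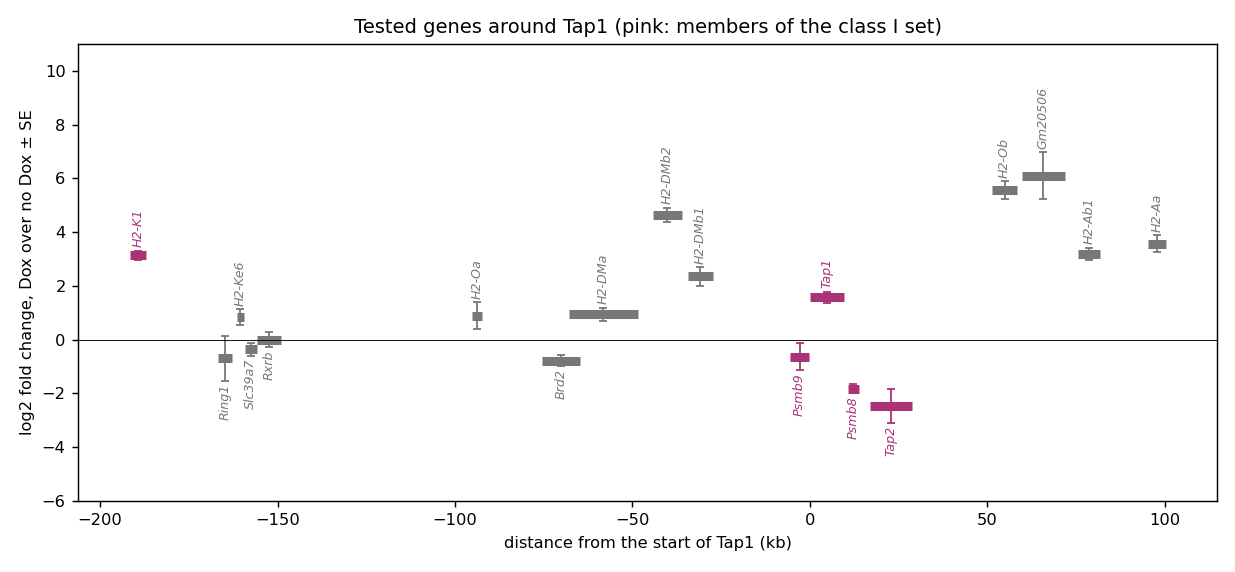
Log2 fold change ± SE, Dox over no Dox, of the 18 tested genes around Tap1 against their distance from the Tap1 start in kb; bar width is gene length and members are in pink. The 4 adjacent members lie between -2.47 and 1.58, while the class II genes H2-DMb1, H2-DMb2, H2-Ob, H2-Ab1 and H2-Aa lie from 2.35 to 5.57 and H2-DMa and H2-Oa at 0.93 and 0.89.

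The window between Psmb9 and Tap1 is printed because the pair shares it: the RefSeq promoter windows of the 2 genes have 275 bases in common. Tap1 passed the test and Psmb9 did not; the difference between their changes was not tested. It is given on the Tap1 strand (chr17:34187306-34187605, plus), beside that of Psmb8 (chr17:34197945-34198244, plus), which fell. Capitals mark the letters listed above.
Tap1 and Psmb9: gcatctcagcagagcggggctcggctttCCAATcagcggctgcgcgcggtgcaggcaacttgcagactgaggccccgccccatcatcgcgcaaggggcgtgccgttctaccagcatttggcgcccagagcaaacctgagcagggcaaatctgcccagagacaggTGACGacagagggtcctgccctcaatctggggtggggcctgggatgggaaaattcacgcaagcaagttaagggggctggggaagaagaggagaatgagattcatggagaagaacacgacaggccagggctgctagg
Psmb8: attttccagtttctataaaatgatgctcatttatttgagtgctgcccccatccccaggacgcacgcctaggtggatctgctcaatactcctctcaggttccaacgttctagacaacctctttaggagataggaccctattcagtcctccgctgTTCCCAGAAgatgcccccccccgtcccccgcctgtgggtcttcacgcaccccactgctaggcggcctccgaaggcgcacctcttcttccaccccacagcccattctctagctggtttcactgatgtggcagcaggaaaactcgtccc
The shared window holds 1 Y box and 1 CRE core match. That of Psmb8 holds neither, and was the only member window with the GAS letters, which occur in 8.30% of all windows. Of the 8 members with a RefSeq window, 6 had a Y box match (B2m, H2-D1, H2-K1, Psmb9, Tap1 and Tapbp) and 5 a CRE core match (the same without Tapbp); the Psmb10 window had none of the 5 motifs.

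Other genes of the pathway were grouped by role, with 61 of 64 listed genes tested and 36 called, 20 higher and 16 lower (59.0%, beside 45.6% of all tested genes). Of the constitutive catalytic subunits, proteasome activators and the assembly factor, 1 of 8 rose and 5 fell (75.0% called, median log2 fold change -1.46). The one that rose was Psme2, a subunit of the interferon-inducible 11S activator, at 0.74 ± 0.17 (SE, adjusted p = 0.0066, edgeR); it did not pass without replicate 4 or without replicate 6 of the group without Dox (adjusted p = 0.052 and 0.070). Its partner Psme1 was at 113 ± 6.0 and 110 ± 25 normalized CPM (SD, n = 3 each; adjusted p = 0.876).

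Of 14 genes for folding, translocation and peptide editing in the endoplasmic reticulum, 2 rose and 6 fell (median -0.36). This was 57.1% called, beside 45.6% of all tested genes. The chaperone Calr, which holds heavy chains in the loading complex, went from 393 ± 18 to 796 ± 235 normalized CPM (SD, n = 3 each; log2 fold change 1.02 ± 0.20 (SE), adjusted p = 0.0024, edgeR). The protease gene Sppl3 rose by 1.08 on the log2 scale (adjusted p = 0.010), a call lost without replicate 4 or replicate 5 of the group without Dox (adjusted p = 0.053 and 0.072). The translocon subunits Sec61b and Sec61a1 fell by 1.97 and 1.95 on the log2 scale (adjusted p = 0.00090 and 4.60e-05). Tapbpl, a peptide editor related to tapasin, fell by 1.40 (adjusted p = 0.0012), the opposite direction to Tapbp.

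Of 8 tested genes for peptide trimming in the cytosol none rose and 2 fell, the aminopeptidase Lap3 by 1.56 and the tripeptidyl peptidase Tpp2 by 0.87 on the log2 scale (adjusted p = 0.0019 and 0.0031, edgeR; median of the list -0.48). Those 2 falls were 25.0% of the tested trimming genes, beside 45.6% called of all tested genes. Among the 20 transcription factors 11 rose and 2 fell (65.0% called, median 1.05). The largest rises were those of Ciita, the class II relative of Nlrc5, from 4.06 ± 1.1 to 77.5 ± 3.9 normalized CPM, of Irf8 from 31.8 ± 6.0 to 563 ± 50 and of the interferon signalling factor Irf9 from 17.8 ± 1.2 to 101 ± 13 (SD, n = 3 each; adjusted p of at most 9.58e-06, edgeR). Ciita and Irf8 are also expressed in B cells and dendritic cells. The NF-kB precursor gene Nfkb1 fell by 1.15 (adjusted p = 0.010). The Polycomb methyltransferase gene Ezh2 fell by 0.58 (adjusted p = 0.039), a call lost in 8 of its 14 alternatives (adjusted p from 0.00023 to 0.264).

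Of 11 tested genes for interferon receptors, kinases and their regulators 6 rose and 1 fell (median 0.85). This was 63.6% called, beside 45.6% of all tested genes. The receptor chains Ifngr1 and Ifngr2 rose by 1.42 and 1.52 on the log2 scale (adjusted p = 0.00033 and 0.011, edgeR), and the call of Ifngr2 was lost without replicate 4 or replicate 6 of the group without Dox (adjusted p = 0.063 and 0.051). Usp18, an interferon-induced inhibitor of the type I receptor, rose by 2.37 (adjusted p = 0.0027). Socs1, an inhibitor of JAK kinases, fell by 2.52 (adjusted p = 0.0074), and Dox replicate 12 was again its lowest library at 1.32 normalized CPM. Without Dox replicate 10 the log2 fold change of Socs1 was -3.57 (adjusted p = 0.0010, edgeR). Leaving out 1 library at a time, it ran from -3.57 to -2.08. The gene of interferon gamma itself, Ifng, had too few counts in either group to be tested. It had 3, 2 and 0 counts without Dox and 0 in each Dox library.

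**Figure D5:**
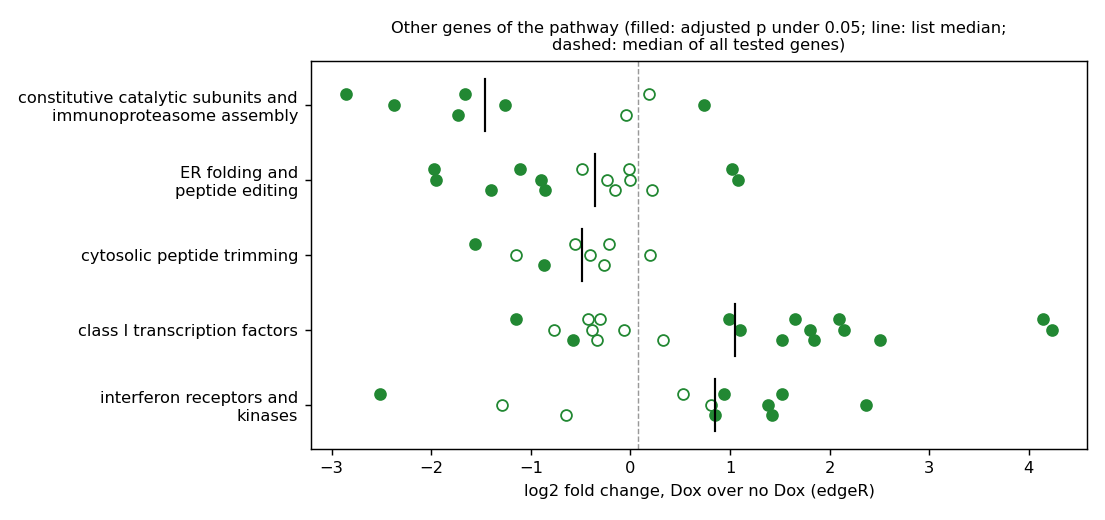
Log2 fold change, Dox over no Dox, of the 61 tested genes in 5 lists of the pathway (filled circles: adjusted p under 0.05; black lines: list medians; dashed line: median of all tested genes, 0.07). The transcription factor and interferon receptor lists lie mostly to the right of 0, with medians of 1.05 and 0.85, and the proteasome list mostly to the left, with a median of -1.46.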

How the data were processed

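The authors deposited raw counts, whole numbers of reads per Entrez gene ID, for 6 libraries made with a 3′ mRNA kit (QuantSeq, forward version), per the labels' protocols. The submitters' processing notes name STAR, featureCounts and GRCm38; versions, annotation, strand and multi-mapping settings are not given in the sources used here. Symbols and positions came from RefSeq (GRCm38.p6), which matched 39374 of 40808 IDs (96.5%); strands and 3′ ends came from GENCODE M21. Of 157 list entries, 2 were not found; 0 sample columns were left over. Genes were filtered (filterByExpr, minimum count 10, minimum total 15), scaled by TMM and tested with edgeR 4.0.16 in R 4.3.3 without covariates; DESeq2 1.42.0 and limma 3.58.1 were alternatives. SEs came from the fold change and F statistic. Within-library ratios used counts plus 0.5. Floors of 3 counts cover counting error only. No numbers are shared between groups. Named genes were the members, Psmb5, Psmb6, Psmb7, the 3 largest rises and falls of each pathway list among called genes without group overlap, the 5 genes nearest Nlrc5 and the nearest neighbours with counts; any others were picked with their values in view. Members and lists were chosen with earlier results of these data known.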

Additional observations from a re-analysis of the deposited data

How the results depend on the processing

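No paired analysis was possible because replicate numbers 4 to 6 and 10 to 12 have none in common. The calls of H2-K1, H2-D1, Tap1, Tap2, Tapbp and Psmb8 kept direction and side of the threshold in each of the 14 alternatives. Without a low-count filter Psmb9 (-0.74, adjusted p = 0.0037) and Psmb10 (-0.64, adjusted p = 0.038) also passed, making 4 members lower. In that fit 2923 genes were higher and 3621 lower of 27308 tested. The cause of these added calls of members was not tested. Nlrc5 was 2.39 with limma-voom (adjusted p = 0.064) and had no value with at least 10 counts in every library, since 1 library had 9. At an adjusted p under 0.01, 2200 genes were higher, as a smaller threshold must give fewer calls. Leaving out 1 library at a time, the log2 fold change of B2m ran from 0.70 to 1.51, of Tap2 from -3.25 to -1.99, of Psmb10 from -0.67 to -0.35, of Psmb9 from -1.14 to -0.21 and of Nlrc5 from 2.05 to 3.06, and the number of changed genes from 4794 to 7025. The Tap1/B2m ratio difference ran from -0.068 to 1.001 and changed sign without Dox replicate 12 (-0.068). Without Dox, Nlrc5 had the lowest counts of the members, 9 to 23 per library.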

Other observations

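Non-classical class I genes of the MHC did not all rise with H2-K1. H2-Q2 had 345, 216 and 247 counts and H2-T3 158, 123 and 136 counts without Dox, and both had 0 counts in each of the 3 Dox libraries, as H2-Q1 did. The labels do not state strain, and a difference in strain and Dox cannot be told apart for these counts. H2-Q7 went the other way, from 146, 115 and 130 counts to 2415, 2858 and 1323, in the order of replicates given above. H2-Q9 had the same Dox counts, so it and H2-Q7 cannot be told apart. H2-Q6 was also higher (log2 fold change 3.67, adjusted p = 0.00034, edgeR). H2-Q4 was not called (log2 fold change 0.87, adjusted p = 0.139, edgeR). The genes of this paragraph were picked after their values were seen.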
